A study of Bos taurus with 6 samples.

Results

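The 39 genes described here are the T cell receptor, co-stimulation, lineage transcription factor and cytotoxic genes that mark T cells and natural killer (NK) cells, chosen by their symbols. Of these, 36 were among the 25444 genes of the mRNA count table, and SH2D1A, KLRB1 and NCR1 were not analysed here. The tissue was intramuscular fat (IMF) of the sternomandibularis muscle of Qinchuan cattle, a Chinese breed, at 24 months of age. All animals were males weaned at 3 months and kept on the same diet. Steers were castrated at 6 months, bulls were left intact, and the study asked which mRNAs and microRNAs (miRNAs) of IMF differ after castration. mRNA was sequenced in 1 pooled library per group and small RNA in 2 libraries per group. The study's design places 6 animals in each mRNA pool and 3 in each small RNA library, whereas the sample labels give 3 heads and 1 head. The mRNA libraries therefore have no replicates, and the spread between animals cannot be seen in them.

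T cells recognise antigen through a receptor that signals through the CD3 chains, the CD247 (zeta) chain and the kinases LCK and ZAP70. The coreceptors CD4 and CD8 mark helper and cytotoxic T cells, and molecules such as CD28 and CD27 give the second signal that a T cell needs. Cytotoxic T cells and NK cells kill target cells with perforin and granzymes held in granules. Adipose tissue holds resident T cells beside its macrophages, so that IMF RNA carries a lymphocyte share that depends on both the number of such cells and the RNA in each.

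The deposited mRNA counts summed to 12677375 in steers against 9868415 in bulls. A gene at 0 counts could therefore be present at up to 0.237 CPM (counts scaled to a common library total) in steers or 0.304 CPM in bulls, the level of 3 counts. The tissue label was checked against defining markers. The adipocyte genes CIDEC, a lipid droplet protein, and ADIPOQ, which encodes adiponectin, had 9931 and 4513 counts in steers against 7501 and 6651 in bulls. The muscle actin gene ACTA1 had 13852 counts in steers against 19910 in bulls, so that both libraries also held muscle fibre RNA.

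T cell and cytotoxic lymphocyte genes were lower in the steer library as a group. Together the 36 genes had 403 counts (31.8 CPM) in steers and 2239 (227 CPM) in bulls, a 6.05-fold higher level in bulls after scaling (95% Clopper-Pearson interval 5.44 to 6.74). A call required an adjusted p under 0.05 in an exact binomial test (two-sided, Benjamini-Hochberg over 17752 genes) together with an absolute log2FC, the log2 fold change of steers over bulls, over 1. By this rule 25 of the 36 genes were lower in steers, where 8.13% of all genes tested were, and 0 were higher, where 4.37% of all genes were. The remaining 11 were not called. The fold change was below 0 for 35 genes, 5 of them with at most 3 counts in either library, and above 0 for FOXP3. Of these, CD28 and CD69 had equal counts in both libraries and lay below 0 by the scaling alone. The median log2FC, with 0.5 counts added to each library, was -2.91 for these genes and 0.01 for all genes tested. With 5 counts added it was -1.64 for these genes and 0.01 for all genes. Genes with at most 3 counts in either library enter both medians. Over the 31 other genes, with no counts added and steer counts of 0 set to 3, the median was -2.27. That setting was chosen after seeing the data. The test compares these 2 pooled libraries and not the conditions, and the intervals cover counting error only, since sequencing reads made by PCR are not independent molecules. In bulk RNA, fewer lymphocytes and less lymphocyte RNA per cell cannot be told apart.

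The calls depended on the number of counts. Of the 28 genes with at least 10 counts over both libraries, 24 were lower in steers, against 9.59% of the 14540 genes with that many counts. Of the 8 genes with fewer counts, 1 was lower, KLRK1. When pools were assumed to vary with a biological coefficient of variation of 0.4 in place of counting error alone, 7 of the 36 genes were still called lower, against 93 of all genes. At 0.2 the numbers were 17 of the 36 and 762 of all genes. The small RNA libraries, the only ones here with replicates, had a fitted common coefficient of variation of 0.339. They hold another type of RNA, so that the spread of the mRNA pools remains unknown. UBASH3A and GATA3 already lost their calls at 0.1, which left 1 of the 6 transcription factors called. At 0.2 and 0.4 the calls fell to 6 and 2 of the receptor genes, 7 and 3 of the surface molecules and 3 and 1 of the cytotoxic genes. The 7 genes called at 0.4 were CD3G, ZAP70, CD2, CD8A, CD27, TBX21 and PRF1, so that CD3E, LCK and NKG7, whose exact binomial p-values below are very small, were not among them. No gene reached 100 counts in steers, where the highest count was 53, and 7 genes did so in bulls.

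**Figure D1:**
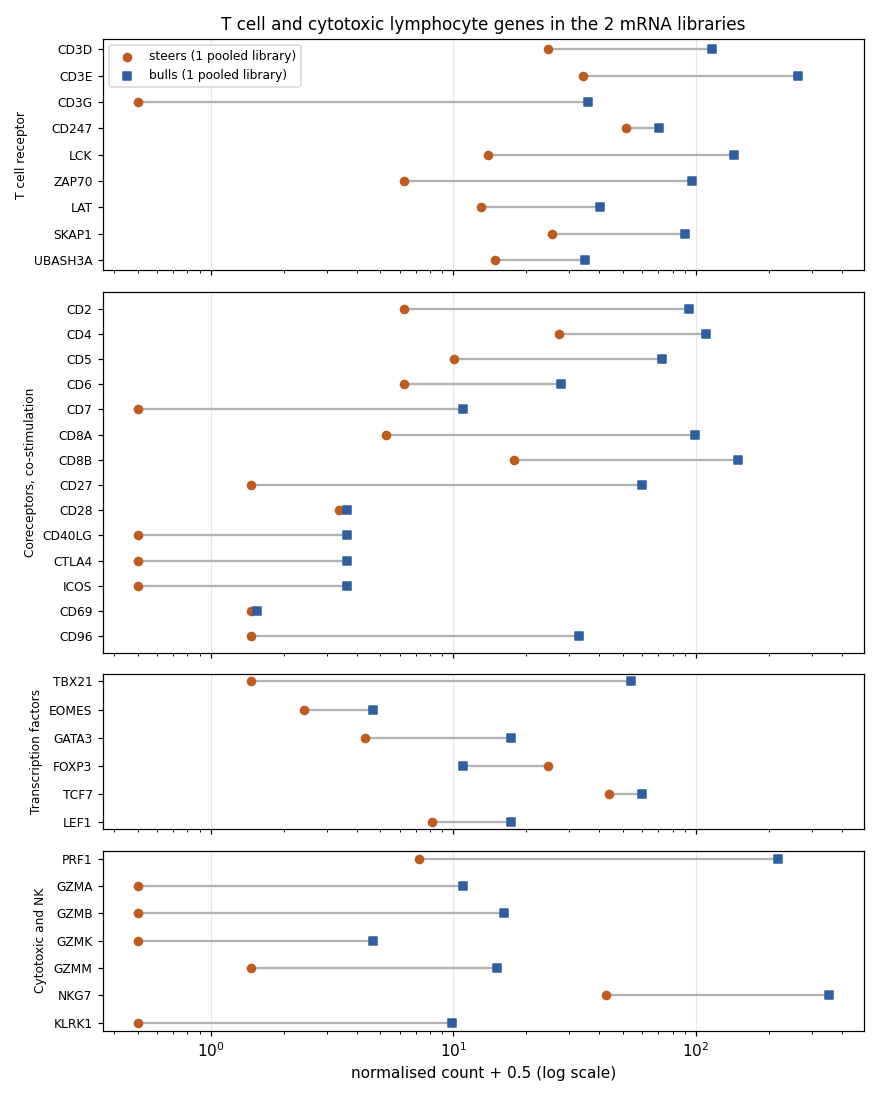
Normalised counts of the 36 T cell and cytotoxic lymphocyte genes in the steer library (circles) and the bull library (squares), with 0.5 added and on a log axis. The 9 genes with 0 counts in steers lie at the left edge, and FOXP3 is the gene whose steer value lies clearly to the right of its bull value.

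Among the genes of the T cell receptor and its first signalling steps, 8 of 9 were lower in steers and CD247 was not called. The 9 genes summed to 187 counts in steers against 851 in bulls, a log2FC of -2.31 (95% interval -2.54 to -2.08). CD3E, a chain of the CD3 complex and the gene with the most counts of this group, had 35 counts in steers against 253 in bulls. Its log2FC was -2.98 (interval -3.53 to -2.46, exact binomial adjusted p = 1.4e-44). LCK, the kinase that starts receptor signalling, came next with 14 counts in steers against 137 in bulls. That difference gave a log2FC of -3.41 (interval -4.32 to -2.62, exact binomial adjusted p = 1.5e-27). CD3D, another CD3 chain, had 25 and 111 counts in steers and bulls (log2FC -2.27, interval -2.96 to -1.64). CD3G, the remaining CD3 chain, was at 0 counts in steers against 34 in bulls, at least 12.3-fold lower when 3 counts were taken as the floor of the steer library. Such floors take the bull count as exact. With counting error in both libraries, the upper end of the log2FC interval was -3.25 for CD3G, -1.96 for GZMB, -1.29 for CD7 and GZMA and -1.10 for KLRK1, each a smaller fold than the floor gives. In RefSeq's ARS-UCD2.0 assembly CD3E, CD3D and CD3G are neighbouring genes whose spans do not overlap.

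CD247 differed from the CD3 chains in size. This signalling chain of the receptor had 53 counts in steers against 67 in bulls, a log2FC of -0.46 whose interval of -1.01 to 0.08 held 0 (exact binomial adjusted p = 0.20). Its interval did not overlap those of CD3D and CD3E. ZAP70, the kinase recruited to the phosphorylated receptor, had 6 counts in steers against 92 in bulls and the lowest point estimate among those of the group with counts in both libraries, -4.06 (interval -5.54 to -2.88). The adaptors LAT and SKAP1 had 13 and 26 counts in steers against 38 and 86 in bulls, and fell by 1.67 and 1.85 on the log2 scale. UBASH3A, a negative regulator of receptor signalling, had 15 and 33 counts and a log2FC of -1.26 (interval -2.25 to -0.34).

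Of the 14 surface coreceptors and co-stimulatory molecules, 9 were lower in steers. The other 5 had at most 3 counts in either library. The group summed to 79 counts in steers against 636 in bulls, a log2FC of -3.13 (interval -3.49 to -2.79). CD8B, a chain of the CD8 coreceptor, had 18 counts in steers against 142 in bulls. It fell by 3.10 on the log2 scale (interval -3.90 to -2.39, exact binomial adjusted p = 3.7e-26). CD4, the coreceptor of helper T cells, which macrophages of some species also carry, had 28 counts in steers against 105 in bulls. Its log2FC was -2.03 (interval -2.69 to -1.42, exact binomial adjusted p = 3.8e-12). CD8A, the second CD8 chain, had 5 counts in steers against 94 in bulls and fell by 4.35 (interval -6.01 to -3.08), an interval that did not overlap that of CD4, whereas the interval of CD8B did. CD8A and CD8B are neighbours in ARS-UCD2.0.

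CD2, an adhesion receptor of T and NK cells, had 6 counts in steers against 89 in bulls (log2FC -4.01, interval -5.50 to -2.83). CD5 and CD6, scavenger-type receptors that dampen receptor signals and lie next to each other in ARS-UCD2.0, had 10 and 6 counts in steers against 69 and 26 in bulls. Their log2FC values were -2.91 and -2.24. CD27, a co-stimulatory receptor, had 1 count in steers against 57 in bulls (log2FC -5.96, interval -11.28 to -3.42). CD96, a receptor of NK and T cells for nectin-like ligands, had 1 and 31 counts (-5.08, interval -10.43 to -2.49). CD7 had 0 counts in steers against 10 in bulls, at least 3.63-fold lower in steers. The wide intervals of CD27 and CD96 rest on a count of 1. CD28, the main co-stimulatory receptor, had 3 counts in each library. CD40LG, which T cells show to B cells, and the checkpoint and co-stimulatory receptors CTLA4 and ICOS each had 0 counts in steers against 3 in bulls. CD69, an early activation marker, had 1 count in each library. A difference in these 5 genes was not detectable at this depth, and no fold change is given for them.

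**Figure D2:**
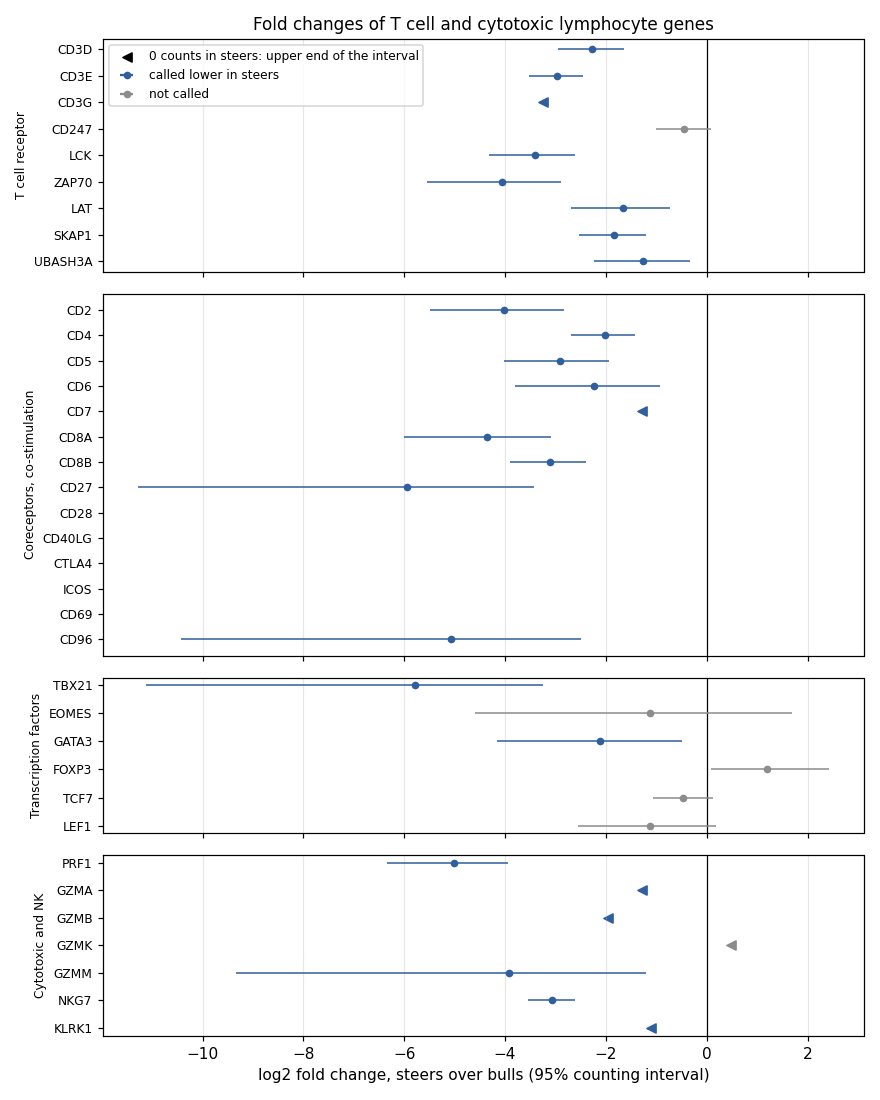
Log2FC (steers over bulls) of the T cell and cytotoxic lymphocyte genes with 95% counting intervals, coloured by call. Triangles mark the upper end of the interval of genes with 0 counts in steers, and the 5 genes with at most 3 counts in both libraries have no point; 8 of 9 receptor genes lie below 0 and are called, whereas 4 of 6 transcription factors are not called.

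The lineage transcription factors differed less than the other groups. Of 6 genes, 2 were lower in steers, 4 were not called, and the sum moved from 154 counts in bulls to 85 in steers, a log2FC of -0.98 (interval -1.38 to -0.59). This interval did not overlap that of any of the other 3 groups of these genes. Without TCF7, its gene with the most counts, the sum had a log2FC of -1.40 (interval -1.97 to -0.85). That interval overlapped the one of the receptor genes without CD3E, -2.36 to -1.84. TBX21, which encodes T-bet, the factor of type 1 helper and cytotoxic cells, had 1 count in steers against 51 in bulls. Its log2FC was -5.79 (interval -11.13 to -3.25, exact binomial adjusted p = 3.2e-14). GATA3, the factor of type 2 helper cells, had 4 counts in steers against 16 in bulls (-2.12, interval -4.16 to -0.49, exact binomial adjusted p = 0.020).

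TCF7, a factor of naive and memory T cells, had the most counts of the group, 45 in steers against 57 in bulls. Its log2FC of -0.46 had an interval of -1.06 to 0.13 (exact binomial adjusted p = 0.25). LEF1, its relative, had 8 and 16 counts, and the interval of its log2FC of -1.12 ran from -2.55 to 0.19. EOMES, the T-bet relative of cytotoxic cells, had 2 counts in steers against 4 in bulls (-1.12, interval -4.59 to 1.68). FOXP3, the factor of regulatory T cells, had 25 counts in steers against 10 in bulls and was the exception in sign. Its log2FC of 1.20 (interval 0.09 to 2.42) missed the threshold (exact binomial adjusted p = 0.078). FOXP3 overlaps CCDC22 and PPP1R3F in ARS-UCD2.0, and how the counting used strand is not given in the sources used here, so that reads shared between these genes cannot be told apart. The same holds for CD69, CD96, GZMA and LEF1, each of which overlaps another protein-coding gene there.

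The cytotoxic and NK genes showed the lowest summed log2FC of the 4 groups, although its interval overlapped that of the surface molecules. Of 7 genes, 6 were lower in steers, with 52 counts in steers against 598 in bulls, a log2FC of -3.65 (interval -4.08 to -3.24). NKG7, a granule membrane protein, carried most of the steer counts, 44, against 338 in bulls. Its log2FC was -3.06 (interval -3.55 to -2.61, exact binomial adjusted p = 3.0e-61). Without NKG7 the other 6 genes summed to 8 counts in steers against 260 in bulls, a log2FC of -5.14 (interval -6.37 to -4.14). PRF1, which encodes perforin, had 7 counts in steers against 208 in bulls. It fell by 5.02 on the log2 scale (interval -6.35 to -3.95, exact binomial adjusted p = 8.8e-55).

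The granzymes, proteases delivered through perforin pores, had few counts. GZMA had 0 counts in steers against 10 in bulls, at least 3.63-fold lower in steers. GZMB had 0 and 15 counts, at least 5.44-fold lower. GZMM had 1 and 14 counts, a log2FC of -3.93 (interval -9.33 to -1.21). GZMK, a granzyme of memory-like T cells, had 0 counts in steers against 4 in bulls and was not called (exact binomial adjusted p = 0.21). KLRK1, the activating receptor NKG2D, had 0 counts in steers against 9 in bulls, at least 3.27-fold lower. All of the granzymes had more counts in bulls, but their steer counts were 0 or 1.

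Genes around these, taken as whole lists, differed to unequal degrees. Of 25 further genes of T cell signalling, 11 were lower and 1 was higher in steers. The adaptor LCP2 had 92 and 325 counts and the exchange factor VAV1 had 173 and 626, with log2FC values of -1.94 and -1.98. The 3 genes of this list with the most counts were DGKA, PLCG1 and PTPN6, none of them made by T cells alone. PLCG1 was not called (-0.25) and PTPN6 was lower (-1.65). DGKA, a diacylglycerol kinase that limits receptor signalling in T cells, was the gene called higher, with 2229 counts in steers against 744 in bulls (log2FC 1.46, interval 1.34 to 1.58). The sum of this list, 6857 and 7987 counts, is dominated by such genes and had a log2FC of -0.34.

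Of 18 cytokine and homing receptors of lymphocytes, 14 were lower and 0 higher. S1PR1, by which lymphocytes leave lymphoid tissue and which endothelium also expresses, had the most counts, 1407 in steers against 1510 in bulls. Its log2FC of -0.22 (interval -0.33 to -0.12) was under the fold threshold and was not called. CXCR4, the receptor for CXCL12, had 186 and 812 counts (log2FC -2.25). ITGAL, the alpha chain of the integrin LFA-1, had 13 counts in steers against 184 in bulls (-3.95), and the interleukin 2 receptor chain IL2RB had 3 and 57 (-4.37). IL2RA, the alpha chain that regulatory T cells carry at high level, had 46 and 60 counts and a log2FC of -0.51 (interval -1.09 to 0.07).

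Of the 20 further NK and cytotoxic genes in the table, 16 had counts and 10 of these were lower in steers. GNLY, the granule protein granulysin, had 0 counts in steers against 105 in bulls, at least 38.1-fold lower in steers. CCL5, a chemokine of activated T and NK cells, had 4 and 170 counts, a log2FC of -5.53 (interval -7.42 to -4.15). The 3 genes of the list with the most counts were CTSC, FCGR3A and TNFSF10, which myeloid cells also express, with log2FC values of -1.41, -3.57 and -1.53. IFNG, the signature cytokine of type 1 cells, had 0 counts in both libraries.

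Of 13 inhibitory receptors and ligands of T cells, 6 were lower and 0 higher. Among the receptors, PDCD1 (PD-1) had 47 counts in steers against 80 in bulls (log2FC -0.89, interval -1.44 to -0.35). LAG3 had 151 and 215 (-0.63, interval -0.94 to -0.33). PDCD1 and LAG3 missed only the fold threshold and were not called. TIGIT had 0 and 9 counts and HAVCR2, which macrophages share, had 17 and 137, and both were called lower. CD86, a ligand of CD28 on antigen-presenting cells, had 75 and 453 counts (log2FC -2.72). The genes of the list with the most counts, PVRL2 (NECTIN2) and CD58, had log2FC values of 0.03 and 0.06 and were not called, as was PVR at -0.40.

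Genes of other leukocytes were also lower in the steer library. Of 14 pan-leukocyte genes, 13 were lower and PTPRCAP was not called. The list summed to 4475 counts in steers against 15137 in bulls, a log2FC of -1.88 (interval -1.93 to -1.83). PTPRC, which encodes CD45, had 107 and 780 counts (-2.99, interval -3.29 to -2.69), and LAPTM5 had the most, 1641 and 4669 (-1.63), followed by ARHGDIB (-1.32) and LCP1 (-2.17). Of 13 myeloid genes, 11 were lower, and the list fell from 46495 counts to 21705, a log2FC of -1.22 (interval -1.24 to -1.20), with CSF1R, the gene with most counts, at 7057 and 12309. CSF1R (log2FC -0.92) and CD163, a macrophage receptor with 5611 and 8052 counts (-0.64), missed only the fold threshold and were not called. The complement gene C1QA was called lower at 3487 and 8137. Other myeloid genes fell further, with a log2FC of -4.38 for LYZ, -2.64 for MSR1, -2.34 for CD14 and -2.32 for AIF1. Of the 9 B cell genes with counts 4 were lower, 60 counts against 335 in sum (log2FC -2.60, interval -3.02 to -2.20), with JCHAIN, listed as IGJ, highest in counts at 22 and 142, CD22 at 14 and 68, CD72 at 2 and 67 and the defining genes MS4A1 and CD79B at 0 in both libraries. The summed interval of the lymphocyte genes, -2.75 to -2.44, lay below those of the pan-leukocyte and myeloid lists and overlapped that of the B cell list. The median log2FC with 0.5 counts added was -2.91 for the lymphocyte genes and -2.23 for the pan-leukocyte genes. With 5 counts added the lymphocyte value was -1.64, which cannot be set against a pan-leukocyte value at 0.5 counts. The lymphocyte value was -2.27, near the pan-leukocyte one, over the 31 genes above the floor with genes at 0 counts set to their bound, a setting chosen after seeing the data. The part of these other leukocytes in the lower lymphocyte counts was not tested.

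Markers of lymphoid organs were near 0 in part. Of the thymocyte genes, RAG2, DNTT, AIRE, FOXN1 and PSMB11 had 0 counts in both libraries and RAG1 and PTCRA had 0 in steers against 1 in bulls. CD1A, which dendritic cells also express, had 5 and 44 counts and made up most of that list's 6 and 72, with CD1E at 1 and 19 and ARPP21 at 0 and 7. Of the lymph node stroma genes, CCL21, also made by lymphatic endothelium, had the most counts, 353 in steers against 561 in bulls. Its log2FC of -0.79 (interval -0.99 to -0.60) missed only the fold threshold and was not called. CCL19 at 60 and 40 was not called either. CXCL13 had 55 and 7 counts and was called higher in steers (log2FC 2.85, interval 1.71 to 4.23), and MADCAM1, GLYCAM1 and LTA had 0 counts. For red cells and platelets, 87 and 74 counts gave a log2FC of 0.11 (interval -0.35 to 0.58), with ITGA2B highest in counts at 40 and 66, HBB higher in steers at 21 and 1, HBA at 16 and 6, and ALAS2 at 0 in both.

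The summed lists of tissue cells moved less or the other way. The sums of 8 adipocyte genes (37490 and 35613 counts) and of 10 endothelial genes (10823 and 10322) each had a log2FC of -0.05, with FABP4 lower (-1.06) and LPL higher (1.67) among the adipocyte genes and 0 of the endothelial genes called, PECAM1, VWF and KDR having the most counts of these. Skeletal muscle genes summed to 34101 and 47071 counts (-0.59, interval -0.61 to -0.57), with most counts on ACTA1, CKM and MYH2. The slow-fibre genes MYH7 (675 and 2906 counts, log2FC -2.23) and TNNT1 (485 and 1801, -2.01) were lower, by amounts near that of the summed T cell receptor group, and MYH1 was higher (1.15). Fibroblast and matrix genes summed to 1481004 counts in steers against 691736 in bulls, a log2FC of 0.98, and 4 of 10 were higher, among them the collagen genes COL1A1 and COL3A1 but not COL1A2, these 3 having the most counts. These matrix genes moved opposite to the lymphocyte genes in the same 2 libraries, and their part in the lymphocyte result was not tested. For gamma delta T cells, abundant in cattle, the genes WC1, WC1-12 and CD163L1 had 0 counts in both libraries. Another 5 genes of this list, the receptor genes TRDC and TRGC among them, were not analysed here. The 0 counts therefore do not show that such cells were absent. ZBTB16 and SOX13, which other cells also express, had 1836 and 151 counts in steers against 1741 and 123 in bulls and were not called.

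**Figure D3:**
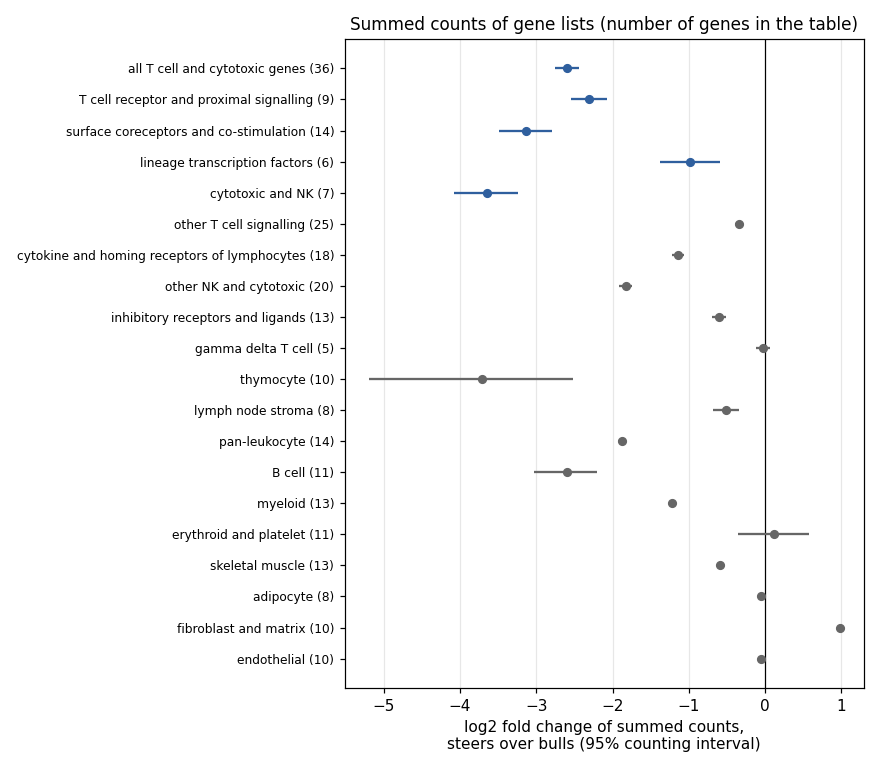
Log2FC (steers over bulls) of the summed counts of each gene list with 95% counting intervals, the number of genes in the table in parentheses. The lymphocyte lists (blue) run from -3.65 for cytotoxic genes to -0.98 for transcription factors, against -1.88 for pan-leukocyte, -1.22 for myeloid, -0.05 for adipocyte and 0.98 for fibroblast and matrix genes.

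The small RNA libraries gave a separate view, with 2 libraries per group. miR-150 marks mature lymphocytes, miR-142 is made across blood cells, and miR-223 marks myeloid cells. miR-181 members are high in thymocytes but occur in many tissues. These mature sequences are shown because the miRNAs that carry the comparison are known by their seeds, bases 2 to 8 from the 5′ end, in capitals. Sequences are from the study's list of known bovine miRNAs, written with T. miR-146a and miR-146b share a seed, as do the 4 miR-181 members, of which miR-181a is shown.
bta-miR-150: tCTCCCAAcccttgtaccagtgt
bta-miR-142-5p: cATAAAGTagaaagcactac
bta-miR-142-3p: aGTGTTTCctactttatggatg
bta-miR-146a: tGAGAACTgaattccataggttgt
bta-miR-146b: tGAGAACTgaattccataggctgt
bta-miR-181a: aACATTCAacgctgtcggtgagtt
bta-miR-223: tGTCAGTTtgtcaaatacccca
bta-miR-451: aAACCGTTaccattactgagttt
bta-miR-486: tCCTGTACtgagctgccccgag

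The small RNA counts summed to 10452582 and 8859844 in the 2 steer libraries and 7784227 and 6556511 in the 2 bull libraries. All 15 miRNAs of the blood cell list passed the filter on low counts. In edgeR's quasi-likelihood test 3 of them were lower and 1 was higher in steers, where 7.08% of the 1073 miRNAs tested were called in each direction. The median log2FC was -0.49 for the list and -0.07 for all miRNAs tested. The study's methods describe 6 animals per group and 3 per library, and the labels do not say which animals went into which library, so that the p-values measure the spread between these libraries.

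miR-150, the lymphocyte miRNA, had 242 and 202 counts in steers against 515 and 485 in bulls, or 27.3 ± 5.28 and 60.1 ± 11.4 CPM (SD, n = 2). The log2FC of -1.14 (SE 0.46) missed the threshold (edgeR adjusted p = 0.082). miR-142-5p had 4458 and 3488 counts in steers against 15449 and 9424 in bulls and was lower in steers, with a log2FC of -1.64 (SE 0.50, edgeR adjusted p = 0.015). miR-142-3p, the other strand of the same hairpin, had a log2FC of -0.70 and its groups overlapped (edgeR adjusted p = 0.33). miR-223 had 41 and 23 counts in steers against 223 and 281 in bulls (log2FC -2.91, SE 0.56, edgeR adjusted p = 1.5e-05). miR-451, of red cells, had 175 and 104 counts in steers against 521 and 475 in bulls and fell by 1.79 on the log2 scale (edgeR adjusted p = 0.0041), whereas miR-486, which muscle also makes, was higher (1.47, edgeR adjusted p = 0.023).

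The other lymphocyte miRNAs were not called. miR-155, induced when lymphocytes are activated, had a log2FC of -0.47, and miR-146a, miR-146b and miR-342 had -0.71, -0.01 and -0.49. The 4 miR-181 members lay above 0, from 0.58 for miR-181b to 1.16 for miR-181d. In each of them both steer libraries were above both bull libraries. How many of all miRNAs tested separated in this way was not counted. miR-144, of red cells like miR-451 and not a lymphocyte miRNA, had a log2FC of -1.94 and was not called (edgeR adjusted p = 0.080). When 1 library was left out at a time, fewer miRNAs over all those tested were called lower in each fit than with all libraries. The list had fewer lower calls in all but the fit without the second bull library. Scaling by total counts in place of TMM left 0 of the 15 called in either direction. Of all miRNAs, 0 were then lower and 1 higher. The call of miR-223 was lost without the second steer library (edgeR adjusted p = 0.11), and those of miR-142-5p and miR-451 were lost without either steer library or the first bull library. The call of miR-486 was lost without either steer library or the second bull library. Without the first bull library miR-181a, miR-181c and miR-181d were called higher in steers. Over these fits the log2FC ran from -2.09 to -0.85 for miR-142-5p, from -3.41 to -2.46 for miR-223, from -2.26 to -1.37 for miR-451 and from 0.84 to 1.97 for miR-486. Such fits leave 1 library in a group, which is then assumed to vary like the other group.

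**Figure D4:**
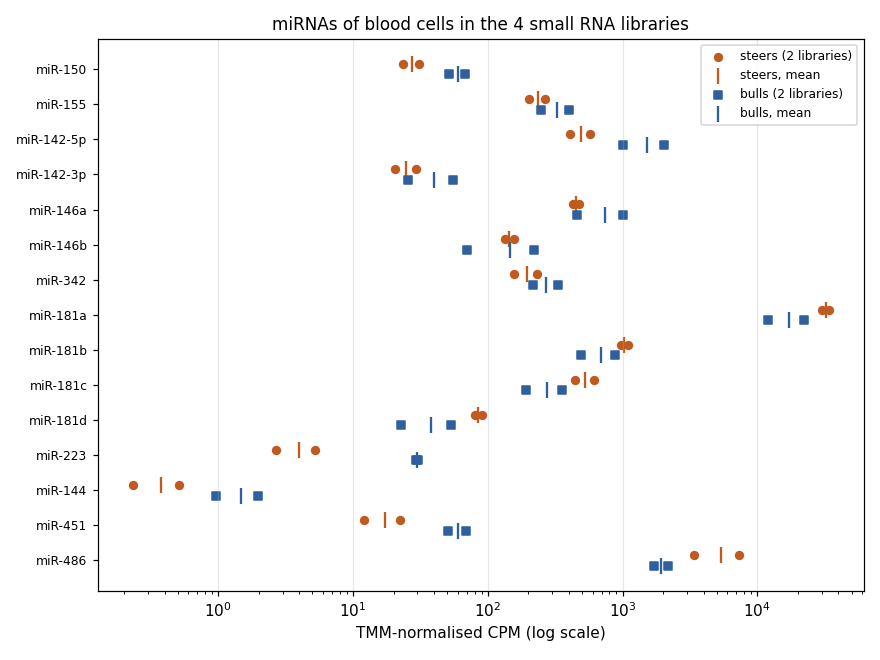
TMM-normalised CPM of the 15 blood cell miRNAs in each of the 4 small RNA libraries on a log axis, with the group means as bars. The steer libraries lie below both bull libraries for miR-150, miR-142-5p, miR-223, miR-144 and miR-451 and above them for miR-486 and the 4 miR-181 members, and the groups overlap for miR-155, miR-142-3p, miR-146a, miR-146b and miR-342. The share of all tested miRNAs whose groups separate in this way was not counted.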

How the data were processed

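IMF mRNA (Ion Proton, 1 pooled library per group) and small RNA (Illumina HiSeq, 2 libraries per group) were compared between steers and bulls. The authors deposited raw counts per gene, made by trimming reads and aligning them with MapSplice to the bovine genome, and raw counts per miRNA, made with BWA against miRBase and the bovine genome and with miRDeep. The submitters' processing notes also name the human build GRCh37.p13 with no role. The counting program is not given in the sources used here. Groups follow the labelled treatment, castrated or intact.

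For mRNA, size factors by the median of ratios (1.04 and 0.959) were used, and counts were tested over genes with at least 1 count by an exact binomial test (scipy 1.17.1). A fold against 0 counts used a floor of 3 counts. miRNA counts were fitted with edgeR 4.0.16 (TMM, glmQLFit, glmQLFTest) in R 4.3.3, after filterByExpr. Both tests were run on simulated data. The mRNA simulation had counting error only and changed only genes with many counts. It cannot show how the test behaves with spread between pools or on genes with few counts. Alternatives were other scalings, other priors and filters, assumed coefficients of variation, DESeq2 1.42.0, limma-voom (limma 3.58.1), the replicate number as a block and leaving out libraries.

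The genes and the lists were chosen with earlier results of these data known. Named genes are all 36 of the group, the 3 with the most counts and those called against the majority in the lists around them, and all tested miRNAs of the list, and other list genes named were chosen after their values were seen. Neighbours and overlaps come from RefSeq's ARS-UCD2.0, and positions are not given because the files use another build. Genes are ordered by counts only, which are not levels per length, since transcript lengths were not used here. Single-gene values of a few genes in these lists are left out of the text. The study's own differential tests were not used.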

Additional observations from a re-analysis of the deposited data

How the results depend on the processing

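The count of 25 genes called lower in steers was also 25 under scaling by total counts, by TMM and by upper quartile. It was also 25 without the fold threshold, where 3254 of all genes were lower and 3535 higher, against 1444 and 776 with it. It was 24 with a minimum of 10 counts or without NKG7. It was 7 with an assumed coefficient of variation of 0.4. The median log2FC of all 36 genes, -2.91, was -3.14 under total counts and -1.64 with 5 counts added. It was -2.27 over the 31 genes above the floor with no counts added and genes at 0 at their bound, a setting chosen after seeing the data. Total counts placed the median of all genes at -0.23, with 2006 genes lower and 539 higher in place of 1444 and 776. Of the blood cell miRNAs, 3 were called lower with DESeq2, limma-voom and upper-quartile scaling. Over all miRNAs these gave 54 lower and 71 higher, 54 and 58, and 52 and 101, in that order. Without a filter 2 of the list were lower, with 36 of all lower and 34 higher. Under total counts 0 of the list were lower, with 0 of all lower and 1 higher. In the fits without 1 library the list had fewer lower calls, except without the second bull library. With the replicate number as a replicate block 4 of the list were called lower, miR-150 included (edgeR adjusted p = 0.013). Over all miRNAs, 119 were lower and 133 higher under the block, against 76 and 76 without it. The higher call of miR-486 was lost without a filter (edgeR adjusted p = 0.66), and miR-181d was also called higher under upper-quartile scaling (edgeR adjusted p = 0.032) and under the block (edgeR adjusted p = 0.0050). The labels give no basis for pairing, and same-numbered libraries had a correlation of deviations of 0.33 with 2 pairs. The log2FC of miR-146b, -0.01, reversed with DESeq2 (0.054), upper-quartile scaling (0.16), limma-voom (0.21) and the replicate block (0.21). When 1 library was left out, log2FC values that reversed, without the first bull library in each case and for miR-146b also without the first steer library, ran from -0.64 to 1.22 for miR-146b, -0.81 to 0.12 for miR-155, -1.18 to 0.15 for miR-142-3p, -1.20 to 0.17 for miR-146a and -0.80 to 0.039 for miR-342. The cause of these changes was not tested. Depth limits the genes with few counts.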

Other observations

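Further lymphocyte genes were chosen after their values were seen. SLAMF1 and SLAMF6, adhesion receptors of T and NK cells, had 4 counts each in steers against 42 and 21 in bulls, log2FC values of -3.51 and -2.51, and both were called lower by the exact binomial test. SLAMF7, found on NK and plasma cells, had 23 counts in steers against 101 in bulls (-2.26). The granzyme gene GZMH had 0 counts in steers against 12 in bulls, at least 4.35-fold lower in steers. NCR3, an activating NK receptor, had 73 and 109 counts, a log2FC of -0.70 (interval -1.15 to -0.26), and was not called. Of the gamma chain genes of the T cell receptor, TRGC4 had 0 counts in steers against 8 in bulls and was called lower, while TRGC3 and TRGC6 had 0 counts in steers against 2 and 1 in bulls. TRGV3-1 had the most counts of these genes, 2 in steers and 8 in bulls, and was not called (log2FC -2.12, interval -5.40 to 0.20), and TCRG5 and TRGV3-2 had 0 counts in both libraries.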
